A study of Mus musculus with 160 samples.

Results

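Induced hematopoietic progenitor cells (iHPCs) of day 14 and day 17 of a stem cell culture were compared to describe how these cells changed over a short span of maturation, apart from their interferon response. All single cells with these labels were taken, which gave 21 day-14 iHPCs and 18 day-17 iHPCs, or 39 of the 160 cells of the series. Both groups came from mouse cells of strain C57BL/6, and all had been made from pluripotent stem cells carrying a doxycycline-inducible Runx1-p2a-Hoxa9 cassette at the Rosa26 locus, for which clones had been selected by drug resistance. The labels speak of ESC/iPSC without saying which cell came from which, whereas the study's methods derive the iHPCs from ESCs. The cells had matured for 3 days (day 14) or 6 days (day 17) on OP9-DL1 (stromal cells engineered to present the Notch ligand DL1), in conditioned medium with cytokines and with doxycycline, so that both groups carried the induced factors and neither is a control without them. By the study's methods both were sorted as CD45-positive cells without lineage markers of erythroid, myeloid, mast and T or B cells, which leaves out cells that already show such proteins. No label names a culture or an experiment. Each group therefore counts as 1 sample, no difference has a replicate check, no test was run, and the spread shown is that between single cells.

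Blood progenitors that seed the thymus pass from a multipotent state, in which myeloid and lymphoid genes are active together, to a state in which interleukin 7 receptor, chemokine receptors and integrins are displayed and myeloid genes are silenced. Notch signals from stroma then turn on T-lineage genes such as Ptcra. Lipid synthesis, redox defense and growth programs are also read here, through lists of genes with known roles.

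Levels are given as log2(TPM + 1), where TPM is the length-scaled transcript abundance that the authors computed, and a gene is called detected in a cell above 1 TPM. A difference is the mean level of day-17 cells minus that of day-14 cells. The comparison used 9674 genes that exceeded 1 TPM in more than 30 cells of the series. Their median difference was 0.28, and the relative difference of a gene is its difference minus this value. A gene is called past the threshold when its relative difference is above 2 or below -2. Of the 9674 genes, 187 (1.93%) lay above 2 and 91 (0.941%) below -2. Since TPM is scaled within each cell, a gain of some genes lowers the values of all others.

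The library check set 4 libraries apart. Day-14 cells 4 and 17 were listed at 0 for Ptprc, the gene of CD45, although they had been sorted as CD45-positive, and held the pluripotency genes Pou5f1 (levels 9.93 and 9.45) and Utf1 (10.9 and 10.3). Day-17 cell 9 had a Ptprc level of 0.35 and held the epithelial keratin gene Krt8 at 11.2 and the cardiac and endodermal factor Gata4 at 7.61. Day-14 cell 15 had 3103 genes above 1 TPM, against 6337 to 9333 in the other day-14 cells and 6536 to 9658 in day-17 cells, and a Krt8 level of 9.28. Day-17 cell 15 had Ptprc at 5.69 and Cd7 at 6.40, but also Krt8 at 10.5 and Gata4 at 7.12. It was not among the 4, so the values without them still hold it. Every result below is given over all cells, and the value without the 4 libraries (18 day-14 and 17 day-17 cells), a choice made after seeing the data, stands beside the main ones. Without them the median difference was 0.17, with 217 genes (2.24%) above 2 and 128 (1.32%) below -2.

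In the other cells the CD45-positive gate was matched by the transcripts. Without the 4 libraries Ptprc ran from 1.15 to 6.72 in day-14 cells and from 5.56 to 8.15 in day-17 cells, and the pan-leukocyte gene Coro1a was never below 9.19. Day-17 cells 10 and 11 had a Pearson correlation of 0.985, against a median of 0.748 among the pairs of their group, and day-14 cells 8 and 9 one of 0.956 against 0.819. Whether each pair is 2 cells or 1 was not tested. The Y-linked genes Ddx3y and Eif2s3y were both detected in the same 6 of 18 day-17 cells, cell 15 among them, and in 0 of 21 day-14 cells, which allows a share of up to 14.3%, while Xist was detected in no cell of either group, so that source of the cells and day cannot be told apart for those 6 cells.

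The lymphoid marker genes went from near 0 in most day-14 cells to high levels in most day-17 cells. Cd7, which encodes a surface protein of early T and natural killer progenitors, had a lowest, median and highest level of 0, 0 and 6.92 in day-14 cells and of 0, 8.34 and 9.84 in day-17 cells. It was detected in 6 of 21 day-14 cells (28.6%, exact Clopper-Pearson 95% interval 11.3 to 52.2) and in 15 of 18 day-17 cells (83.3%, 58.6 to 96.4). These intervals cover counting error only. The groups overlapped, because the highest day-14 cell lay above the lowest day-17 cells. The relative difference of Cd7 was 5.61, and 5.91 without the 4 libraries.

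Il7r, the interleukin 7 receptor chain that lymphoid progenitors need for survival, was detected in 0 of 21 day-14 cells and in 15 of 18 day-17 cells. Its highest day-14 level was 0.42, against a day-17 median of 5.34 and a highest level of 6.72, and its relative difference was 4.28. The only day-17 cells without Il7r were cells 1, 9 and 18, and these are also the cells without Cd7. Ccr9, the chemokine receptor for the thymic ligand CCL25, followed with 0 of 21 day-14 cells and 11 of 18 day-17 cells (61.1%, 35.7 to 82.7). Its day-17 levels ran from 0 through a median of 3.55 to 6.40, and its relative difference was 2.63. Cxcr4, the receptor for the stromal chemokine CXCL12, was already detected in 4 of 21 day-14 cells at levels of up to 3.31 and in 17 of 18 day-17 cells at a median of 4.27, with a relative difference of 3.29.

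**Figure D1:**
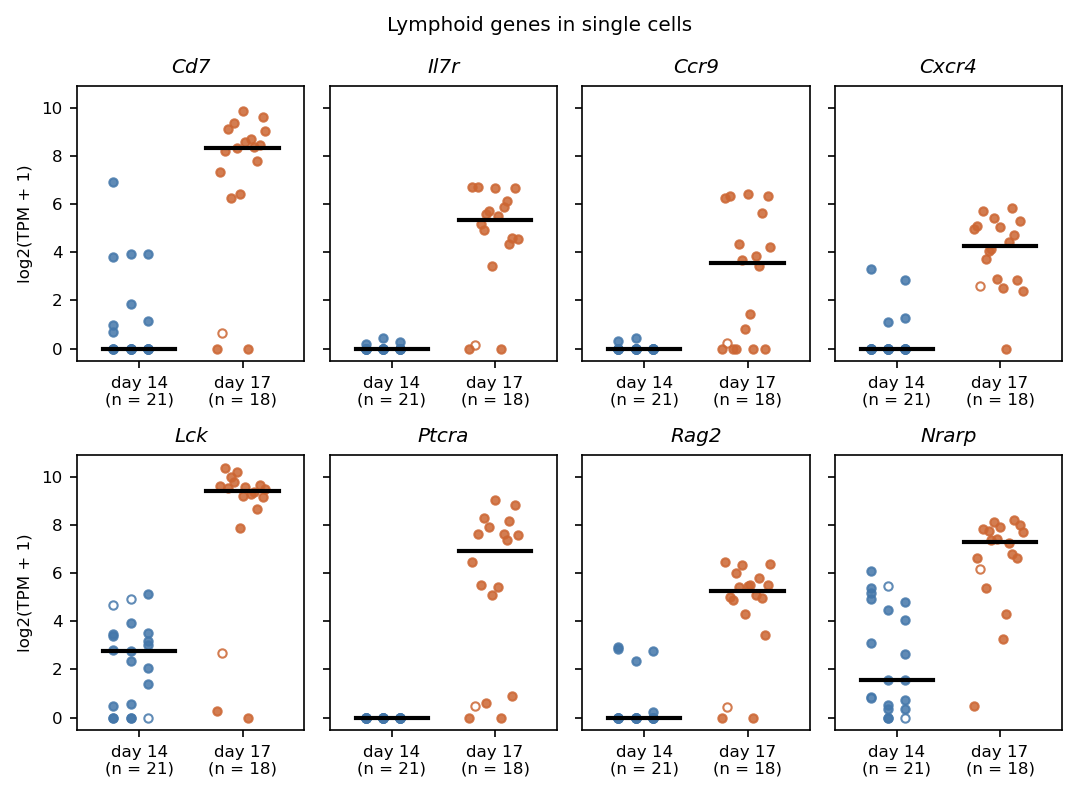
Levels, as log2(TPM + 1), of 8 lymphoid genes in the 21 day-14 cells (blue) and 18 day-17 cells (orange), 1 point per cell, with open points for the 4 libraries that stand apart and a black line at the group median. Il7r, Ccr9 and Ptcra stay below 1 in each day-14 cell, while day-17 cells 1, 9 and 18 lie below 1 for Cd7, Il7r, Ptcra and Rag2, with cells 7 and 16 also below 1 for Ptcra.

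The 2 interferon markers of the same set, Irf7 and Isg15, differed by 6.61 and 6.58 relative to all genes, and are given only as a reference for size. Isg15 ran from 0 to 2.42 in day-14 cells and lay at 4.60 or above in every day-17 cell, without overlap, the only one of the 9674 genes (0.0103%) with each day-17 cell above each day-14 cell. Of the 187 genes above 2, 58 stood on the list of interferon-response genes, and of the 91 genes below -2, 3 did. The genes past 2 described from here on are among the other 129 and 88, except Bst2, which is named with the plasmacytoid markers.

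Of the genes of thymus homing, 6 lay above the threshold. Of the 13 genes listed, 12 passed the filter (Ccr7 did not), and the 6 compare with 1.93% of all genes tested, while none was below -2. Of the 6, Cd7, Cxcr4 and Ccr9 are also marker genes of this comparison. The list was chosen with earlier results of these data known, and Cd7 and Cxcr4 passed the filter mainly through day-17 and day-21 cells. The count is therefore a description and no separate support. The median relative difference of the 12 genes was 2.19 (2.24 without the 4 libraries), against 0 over all genes by construction. Besides Cd7, Cxcr4 and Ccr9 the 6 included 2 integrin chains. Itga4, the integrin alpha 4 chain, had a highest day-14 level of 2.16 and a day-17 median of 4.22, with a relative difference of 3.02. Its partner Itgb7, the beta 7 chain, was detected in 17 of 21 day-14 cells at a median of 3.59, and in 16 of 18 day-17 cells at a median of 7.61, with a relative difference of 2.79.

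The other homing genes that passed stood inside the threshold. Selplg, the ligand of P-selectin through which progenitors roll on thymic vessels, had a relative difference of 1.76, and its level ran from 0 through 6.05 to 7.10 in day-14 cells and from 0.80 through 7.85 to 8.92 in day-17 cells. The day-17 cell was the higher in 90.2% of the 378 pairs of a day-17 and a day-14 cell. Kit, the stem cell factor receptor, differed by 1.34, the integrin beta 1 chain Itgb1 by 0.41, the sphingosine 1-phosphate receptor S1pr1 by 0.27 and the hyaluronan receptor Cd44 by 0.15. Without the 4 libraries 10 of the 12 genes lay above 0, since S1pr1 came to -0.04 and Cd44 to -0.25. Flt3, the receptor for the Flt3 ligand supplied in the medium, was detected in 17 of 21 and 16 of 18 cells, with a relative difference of 0.56.

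Early T-lineage genes were among the largest differences. Lck, the kinase that later relays T-cell receptor signals, was detected in 14 of 21 day-14 cells, with a lowest, median and highest level of 0, 2.76 and 5.14, and in 16 of 18 day-17 cells, with 0, 9.41 and 10.4. Apart from cells 1, 9 and 18, the day-17 cells lay above every day-14 cell. Its relative difference was 5.49, and 6.07 without the 4 libraries. Ptcra, which encodes the pre-T-cell receptor alpha chain and is a direct Notch target, was listed at 0 in each of the 21 day-14 cells and detected in 13 of 18 day-17 cells (72.2%, 46.5 to 90.3), with a day-17 median of 6.91. Its relative difference was 5.10.

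Rag2, a subunit of the recombinase that assembles antigen receptor genes, went from 4 of 21 cells and a highest level of 2.91 to 15 of 18 cells and a median of 5.26, with a relative difference of 3.69. Its partner Rag1 was detected in 1 of 18 day-17 cells, at a level of 1.01. Genes that define later T cells were at or near 0 at day 17. Cd3e, Cd8a and Cd2 were listed at 0 in all 39 cells, and Thy1 and Bcl11b were detected in 0 of 18 day-17 cells, which allows a share of up to 16.7%. Cd3g, Zap70 and Il2ra were each detected in 1 day-17 cell, and Cd3d and Cd4 in 2 each. The gate used antibodies to CD2, CD3, CD4 and CD8 at both days. The part of the sort in the low values of the genes of these proteins was not tested. Of the 17 genes on the T-lineage list, 5 passed the filter, and 3 of these (Lck, Ptcra and Rag2) lay above 2, again against 1.93%. Ptcra and Rag2 passed it mainly through their day-17 and day-21 cells, so the count is partly set by the filter. Most members of the list failed the filter, so the list median is not read.

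Of 13 Notch pathway genes listed, 8 passed, with 3 above 2 (against 1.93% of all genes), none below -2, 7 of 8 above 0 and a median of 1.10 (1.18 without the 4 libraries). The 3 were Ptcra, which the T-lineage count already holds, Notch1 and Nrarp. Ptcra passed the filter only through day-17 and day-21 cells. The receptor Notch1 itself went from 10 of 21 cells at a median of 0.87 to 16 of 18 cells at a median of 4.01, with a relative difference of 2.14. Nrarp, a target that feeds back on the receptor complex, was spread from 0 through 1.55 to 6.07 in day-14 cells and from 0.46 through 7.29 to 8.21 in day-17 cells, with a relative difference of 3.72. Hes1, the best known target, was already at a median of 6.82 in day-14 cells and reached 8.29 in day-17 cells, a relative difference of 0.97. Dtx1, another target, did not pass the filter and was detected in 2 of 21 and 7 of 18 cells. Both groups had been cultured on the same Notch-ligand feeder.

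Of 15 listed lymphoid cytokine receptors and their signaling genes, 11 passed the filter, with a median of 0.75. Il7r lay above 2 and the interleukin 4 receptor chain Il4ra below -2 at -2.34, against 1.93% and 0.941% of all genes. Of 19 transcription factors of lymphoid development, 14 passed the filter, none lay past 2 in either direction, and their median was 0.73. Tcf7, the factor TCF-1 that starts the T-lineage program, came nearest with 1.99, and 2.30 without the 4 libraries. It was detected in 6 of 21 and 13 of 18 cells. Its highest day-14 level, 5.74, belonged to cell 17, and its highest day-17 level, 6.18, to cell 9, and both libraries stand apart. Ets1 differed by 1.38, Ikzf1 (Ikaros) by 1.10, Gata3 by 0.78 and Bcl11a by 0.59. The induced factors Runx1 and Hoxa9 differed by 0.84 and 0.96, and the counts include both the native gene and the cassette, which cannot be told apart here.

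Day-17 cells carried the lymphoid genes in the same cells. Cd7 and Il7r were both detected in 15 of 18 cells, all 4 of Cd7, Il7r, Ccr9 and Cxcr4 in 11, and these with Tcf7 in 9. Lck was detected in all 15 cells with Cd7, Ptcra in 13 of them and Flt3 in 15. Genes detected in the same cell were read from the same library, so these counts describe these 18 libraries. The 3 cells without Cd7, Il7r and Ccr9 were not alike. Cell 9 is the library with keratin genes described above. Cells 1 and 18 held myeloid genes at high levels, with Mpo, the neutrophil peroxidase, at 12.5 and 9.11, Lyz2, a lysozyme of macrophages and neutrophils, at 8.85 and 12.7, and Csf1r, the macrophage growth factor receptor, at 7.59 and 8.42. Their Irf7 levels of 6.88 and 8.48 lay within the range of the other day-17 cells. Of all single cells left out in turn, cell 1 moved the values of Cd7, Il7r, Ptcra, Rag2, Nrarp and Mpo most, and cell 18 those of Lck, Csf1r, Csf2rb and Fcgr3. The relative difference of Cd7 was 6.03 without cell 1.

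**Figure D2:**
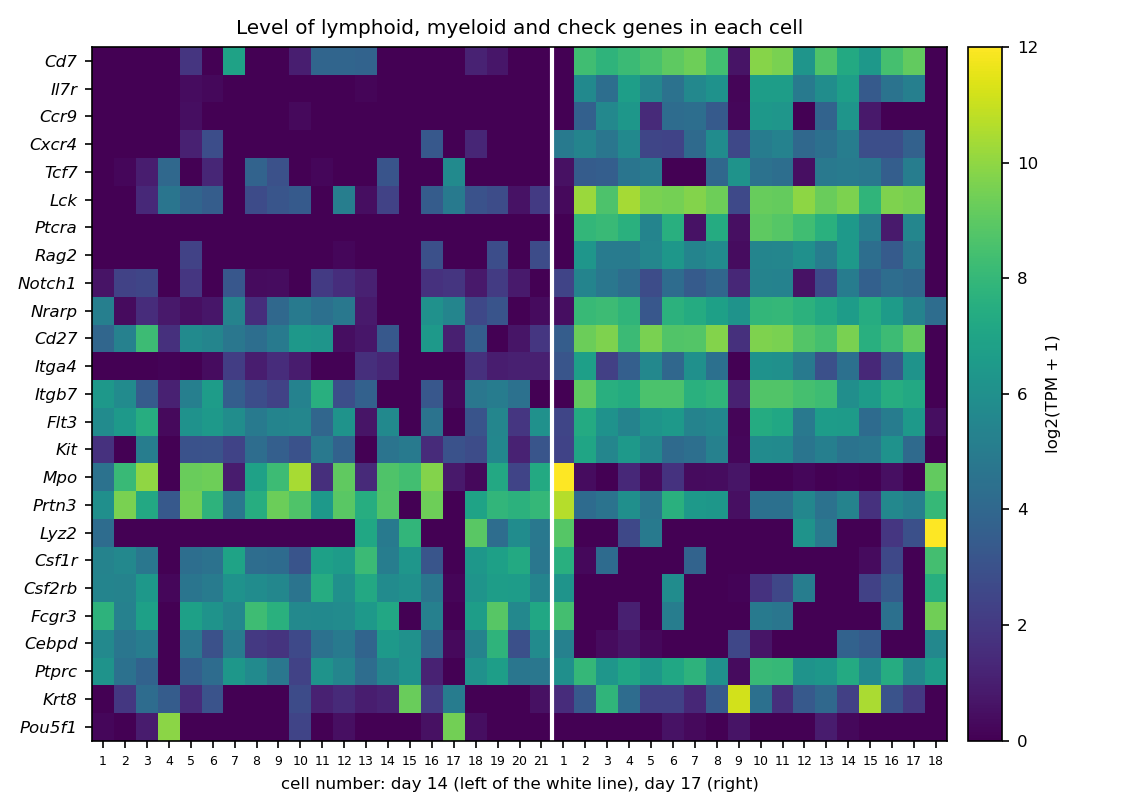
Level, as log2(TPM + 1) by the color scale, of 25 genes (rows) in each of the 39 cells (columns, numbered as in the labels), with day 14 left of the white line and day 17 right of it. Day-17 cells 1 and 18 are dark for Cd7, Il7r and Lck and bright for Mpo, Prtn3 and Lyz2, and day-14 cells 4 and 17 are bright for Pou5f1 and dark for Ptprc.

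Of 24 myeloid receptor genes listed, 13 passed the filter, 4 of these lay below -2 (Fcgr3, Csf2rb, Cd68 and Fcer1g), against 0.941% of all genes tested, none lay above 2, and the median was -1.0. The median was -1.39 without the 4 libraries and -0.61 without the 6 day-17 cells with Y-linked transcripts, where Fcer1g came to -1.87. Fcgr3, the low-affinity Fc receptor III, was detected in 18 of 21 day-14 cells with a lowest, median and highest level of 0, 6.17 and 8.88, and in 7 of 18 day-17 cells with 0, 0 and 9.42. Its highest value of all was in day-17 cell 18, so the ranges overlapped from end to end. Its relative difference was -3.81. Csf2rb, the beta chain shared by the receptors of interleukin 3 and GM-CSF, was detected in 19 of 21 day-14 cells (90.5%, 69.6 to 98.8) and in 8 of 18 day-17 cells (44.4%, 21.5 to 69.2), with medians of 5.80 and 0.06 and a relative difference of -3.65. The gate used antibodies to Gr1 and F4/80 at both days, and interleukin 3 was supplied in the medium at both days. The near copy Csf2rb2 could take part of its reads, and so this value is uncertain.

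Several myeloid genes with large differences did not pass the filter over 160 cells, since few cells of the other groups have them. Under a second filter, above 1 TPM in at least 10 of the 39 cells, 9787 genes were tested, of which 2.01% lay above 2 and 1.16% below -2. Mpo went from 17 of 21 day-14 cells (81.0%, 58.1 to 94.6) at a median of 7.31 to 4 of 18 day-17 cells (22.2%, 6.41 to 47.6) at a median of 0.34, with a relative difference of -4.68. Csf1r went from 19 of 21 cells at a median of 5.07 to 5 of 18 cells at a median of 0, with a relative difference of -3.74. Il1b, the gene of interleukin 1 beta, was detected in 10 of 21 day-14 cells and listed at 0 in all 18 day-17 cells. Il6ra, the interleukin 6 receptor, differed by -2.20, and Hp, the haptoglobin gene of granulocyte precursors, by -2.11. Genes such as Mpo, Csf1r and Il1b passed the second filter mainly through their day-14 cells, so they are given as single values and add nothing to the counts of myeloid genes.

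Myeloid factors split by gene. Of 9 that passed the filter, 2 lay below -2, against 0.941% of all genes, and the median was -1.21. Cebpd, a factor of inflammatory myeloid cells, went from a median of 4.72 to 0.12 with a relative difference of -3.15, and Id1, an inhibitor of helix-loop-helix factors, from 6.86 to 1.11 with -3.61. Cebpb stood just inside the threshold at -1.87, and it was detected in every cell of both days. Sfpi1 (PU.1), the factor that myeloid and early lymphoid progenitors share, did not follow, with medians of 9.38 and 9.10 and a relative difference of -0.32. Neither did Tyrobp, a signaling adaptor, whose lowest level without the 4 libraries was 9.15 at day 14 and 7.75 at day 17.

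Of 18 granule genes listed, 6 passed the filter over 160 cells, with 3 above 0, 3 below 0 and a median of 0.04. Prtn3 (proteinase 3) was lower at day 17 by a relative difference of -1.86 and still detected in 17 of 18 cells, while Lyz2, which did not pass the filter, was detected in 8 cells of each day and differed by -0.07. Nkg7, a granule protein of cytotoxic cells, was the 1 of the 6 above 2, against 1.93% of all genes. It differed by 2.16, but by 1.11 without the 6 day-17 cells that held Y-linked transcripts. Of 19 chemokine and cytokine genes listed, 5 passed, with 4 below 0 and a median of -1.35. Of the 5, 1 lay below -2, against 0.941% of all genes. This was Ccl3, a chemokine of activated myeloid cells, with a lowest, median and highest level of 0, 7.17 and 11.5 in day-14 cells and of 0, 0 and 6.17 in day-17 cells, and a relative difference of -5.72. Its neighbor gene Ccl4 passed only the second filter and differed by -2.51.

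**Figure D3:**
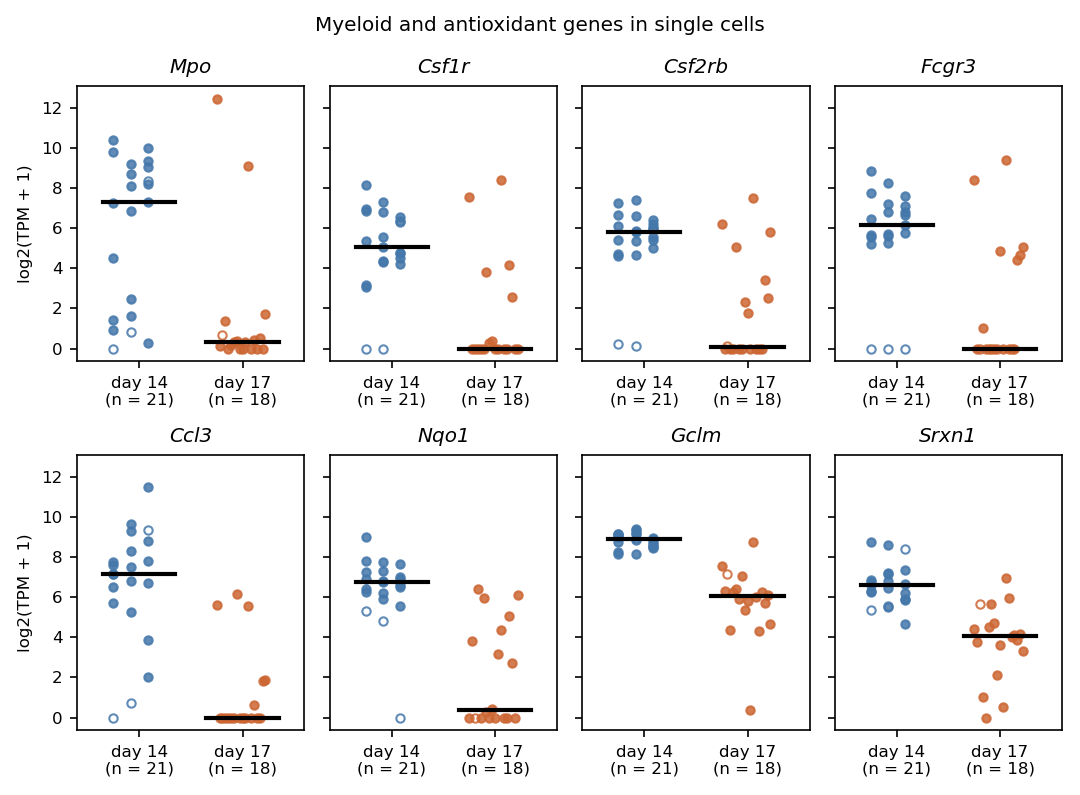
Levels, as log2(TPM + 1), of 5 myeloid and 3 antioxidant genes in the 21 day-14 cells (blue) and 18 day-17 cells (orange), 1 point per cell, with open points for the 4 libraries that stand apart and a black line at the group median. The day-17 medians of Mpo, Csf1r, Csf2rb, Fcgr3, Ccl3 and Nqo1 lie below 1, while single day-17 cells reach 12.5 for Mpo and 9.42 for Fcgr3.

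Marker lists of other cell types that the gate could hold were read in each cell. The mean level over a list in each cell ran from 0 to 1.04 over day-17 cells for the 14 genes of innate lymphoid cells, from 0 to 0.97 for the 10 B-lineage genes and from 0 to 0.97 for the 15 mast cell and basophil genes. In day-14 cells these ranges were 0 to 0.50, 0 to 0.65 and 0 to 0.49. Of the mast cell list, 10 genes were listed at 0 in all 39 cells. Cpa3, a mast cell protease also made by early T progenitors, was the exception, with 0 of 21 and 11 of 18 cells and a relative difference of 2.92. The list of plasmacytoid dendritic cells was higher, from 0 through a median of 1.66 to 2.12 in day-14 cells and from 0.96 through 2.32 to 3.21 in day-17 cells, where the T-lineage list ran from 0 through 1.62 to 2.07. Of its 7 genes that passed, 2 lay above 2, against 1.93% of all genes, namely Lair1 and Bst2, of which Bst2 also stands on the interferon list. Its defining genes Siglech and Klk1 were listed at 0 in each of the 39 cells. Spib and Ly6d, which such cells and B-cell precursors share, were detected in 5 and 6 of 18 day-17 cells and in no day-14 cell. The stromal list, which could show feeder cells, ran from 0.12 to 1.28 in day-14 and from 0.15 to 3.21 in day-17 cells. The 3.21 was that of day-17 cell 15. Of the 4 stromal genes that passed, Dlk1 lay below -2 and Pdgfrb above 2 at 3.09, against 0.941% and 1.93% of all genes. Pdgfrb was detected in 16 of 18 day-17 cells, among them cells with Cd7. The part of such cells in the differences was not tested.

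The largest rises outside the interferon list also held genes with no place on a lymphoid list. Prss2, a trypsinogen whose gene lies inside the T-cell receptor beta locus on chr6:41521776-41525079 (GRCm38.p6), had the largest relative difference of these, 6.12. It was detected in 6 of 21 day-14 cells at levels of up to 7.07 and in 16 of 18 day-17 cells at a median of 8.24. Trypsinogens are near copies of each other, so its reads could be split among them. Aldh1b1, a mitochondrial aldehyde dehydrogenase, was the most evenly changed of the leading genes. It was detected in 2 of 21 day-14 cells (9.52%, 1.17 to 30.4) with a highest level of 3.65, and in each of the 18 day-17 cells with a lowest level of 2.79, a median of 5.84 and a highest of 8.75. Its relative difference was 5.21, and the day-17 cell was the higher in 99.2% of pairs. Cells 1, 9 and 18 are among the 18. Bst1 (CD157), a surface enzyme of lymphoid progenitors and stroma, went from 1 of 21 to 17 of 18 cells with a relative difference of 4.47 and the day-17 cell higher in 98.4% of pairs.

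The rest of these rises were spread over signaling and surface genes. Ly6a (Sca-1), the stem and progenitor antigen, differed by 4.84, with medians of 0.43 and 8.24. Day-17 cells 1 and 18, which lack Cd7, held Ly6a at 6.57 and 6.08, and day-17 cells 9 and 16 at 0. Ly6a is not on the interferon list, but whether it belongs with the interferon response was not tested. Fcho1, an endocytosis factor, differed by 4.66, the metalloprotease inhibitor Timp2 by 4.63 and the aspartic protease Napsa by 4.54. Pik3ip1, an inhibitor of PI3 kinase found in resting T cells, differed by 4.36, the myosin light chain Myl4 by 4.33 and Mzb1, a chaperone of B and plasmacytoid cells, by 4.06. Mzb1 was scattered, detected in 14 of 18 day-17 cells with a highest level of 8.85.

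Across the 129 rises the median gene had a level of 1.5 at day 14 and 4.62 at day 17. Of them, 8 were detected in no day-14 cell and 23 in every day-17 cell. None separated the 2 groups without overlap, against 0.0103% of all genes. Without the 4 libraries, where 0.145% of all genes had each day-17 cell above each day-14 cell, Ppp6r1, a phosphatase subunit named here after its values were seen, was the only 1 of the 129 that did, with a highest day-14 level of 3.91 and a lowest day-17 level of 4.16. In 34 of the 129 the day-17 cell was the higher in at least 90% of pairs. Across the 88 falls the median gene went from 4.43 to 1.99, and in 5 of the 88 the day-14 cell was the higher in at least 90% of pairs. Both sets of genes were picked for large differences, and no share over all genes stands beside the 34 and the 5. These counts therefore only describe the sets. None of the 88 separated the groups, also without the 4 libraries, where 0.0413% of all genes had each day-17 cell below each day-14 cell.

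Surface proteins changed in both directions. Of 53 CD antigens listed, 29 passed, with 2 above 2 and 3 below -2, and of 47 other surface proteins listed 29 passed, with 6 above and 5 below, against 1.93% and 0.941% of all genes. Without the 4 libraries 5 CD antigens lay below -2, since Cd63 and Cd276 came to -2.02 and -2.05. Cd68 is also in the count of myeloid receptors, and Lair1 in that of plasmacytoid markers. Cd27, a costimulatory receptor of the tumor necrosis factor receptor family, had a lowest, median and highest level of 0, 3.95 and 8.20 in day-14 cells and of 0, 8.79 and 9.79 in day-17 cells, with a relative difference of 3.94. The tetraspanin Cd82 differed by 3.16, the oxysterol receptor Gpr183, which guides lymphoid cell migration, by 3.47, the inhibitory collagen receptor Lair1 by 3.11, and the UDP-glucose receptor P2ry14 by 2.55. On the falling side the tetraspanin Cd81 went from a median of 8.04, with each day-14 cell at 5.50 or above, to 5.69, with 15 of 18 day-17 cells detected, a relative difference of -2.85. Cd68, a lysosomal protein of macrophages, differed by -2.18, and the inhibitory receptor Cd300a by -2.03, which became -1.35 without the 6 cells with Y-linked transcripts. Cd34 and Cd47 differed by -0.45 and 0.08.

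The largest falls joined surface, enzyme and matrix genes. Smagp, a small membrane glycoprotein of epithelia, differed by -5.04, the protease inhibitor Spint1 by -4.20, the tetraspanin Tspan8 by -4.15, and Tfpi, the tissue factor pathway inhibitor of endothelium, by -4.06. Tspan8 was detected in 17 of 21 day-14 cells and 1 of 18 day-17 cells. Alox5, the 5-lipoxygenase of leukotriene synthesis, had a median of 4.46 and a highest level of 6.90 in day-14 cells and was detected in 0 of 18 day-17 cells, where its highest level was 0.27, with a relative difference of -4.07. Ptgs1, the cyclooxygenase COX-1, differed by -3.70, and Ptgir, the prostacyclin receptor, by -2.80. Cfp (properdin), a complement protein of myeloid cells, differed by -3.94, and -2.87 without the 6 cells with Y-linked transcripts. The kinase Pim2 differed by -4.21, the serpin Serpinf1 by -3.53 and the transcript B230118H07Rik by -3.88.

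Single genes of 3 further lists were also among the falls. Of the 18 stem and progenitor genes listed, 13 passed, with a median of 0.46 and 7 above 0. Only Lmo2 lay below -2, against 0.941% of all genes. Lmo2, a blood stem cell adaptor that has to be shut off in T cells, went from a median of 6.65 to 3.85, with a relative difference of -2.96. Dlk1, an imprinted Notch-like ligand, differed by -3.45, and the 8 imprinted genes that passed had a median of -0.16. Hmga2, a chromatin protein of fetal stem cells, and Igf2bp2, an RNA-binding protein of the same program, differed by -2.72 and -2.17, while the 16 chromatin and fetal RNA-binding genes of their list had a median of -0.10. Mest, another imprinted gene, went the other way with 2.24, and its highest level, 12.1, was in day-17 cell 9. Without the 4 libraries Mest differed by 2.96, a value that still holds day-17 cell 15 with Mest at 11.8.

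Among metabolic programs, the targets of Nrf2 (Nfe2l2), the factor that turns on genes of glutathione, thioredoxin and NADPH supply, were lower at day 17. All 22 listed genes passed the filter, 20 of them lay below 0, 4 lay below -2, against 0.941% of all genes, none lay above 2, and the median was -0.84 (-0.85 without the 4 libraries). The mean level over the list ran from 6.28 through 7.22 to 7.81 in day-14 cells and from 5.65 through 6.28 to 7.41 in day-17 cells.

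The start regions of these genes were searched on both strands for the core letters of the antioxidant response element, TGACNNNGC. The RefSeq promoter windows used (GRCm38.p6) ran from 250 bases before to 50 after a start. Of the 22 genes, 17 had a window and 8 of these held a match, against 12.4% of 32851 windows and 17.3% of the 7249 genes of the comparison that had a window. The list was made of Nrf2 targets, so this share describes the list and not the difference between the days. The stretches of the 5 genes whose match lies wholly before the start are given to show the letters found, each 5′ to 3′ on the gene's own strand with the match in capitals. It reads on the opposite strand (GCNNNGTCA) in 4 and on the gene's own strand in Nfe2l2.
Gclm, chr3:122245413-122245441, plus strand: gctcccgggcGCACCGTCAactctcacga
G6pdx, chrX:74428919-74428947, minus strand: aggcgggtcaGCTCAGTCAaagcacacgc
Txnrd1, chr10:82859104-82859132, plus strand: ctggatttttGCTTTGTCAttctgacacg
Prdx1, chr4:116685456-116685484, plus strand: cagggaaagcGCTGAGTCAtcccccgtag
Nfe2l2, chr2:75704885-75704913, minus strand: tcagcccaccTGACTCCGCcatgccccgg
The relative differences of these 5 were -3.31 for Gclm, -0.97 for G6pdx, -0.79 for Txnrd1, -0.72 for Prdx1 and -0.42 for Nfe2l2. The median was -0.88 over the 8 genes with a match and -1.21 over the 9 without, so the genes without the letters had the larger median fall. Nqo1, with the largest difference of the list, had no match in its window. A match describes letters in a window and is not a measured binding site.

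Gclm, the regulatory subunit of the enzyme that limits glutathione synthesis, was one of the most even falls. In day-14 cells it lay between 8.17 and 9.42 with a median of 8.92, and in day-17 cells between 0.37 and 8.76 with a median of 6.07. The day-17 cell was the higher in 2.38% of pairs. Its relative difference was -3.31, and -3.27 without the 4 libraries. Nqo1, a quinone reductase at chr8:107388225-107403205, was detected in 20 of 21 day-14 cells (95.2%, 76.2 to 99.9) and 8 of 18 day-17 cells (44.4%, 21.5 to 69.2), with medians of 6.77 and 0.36 and a relative difference of -4.57. Srxn1, which repairs overoxidized peroxiredoxins, went from a median of 6.63 to 4.07 with -3.11, and Osgin1 from 4.02 to 0 with -2.01. The cystine transporter Slc7a11 stood inside the threshold at -1.73, as did Hmox1, the heme oxygenase, at -1.67. Nfe2l2 itself had medians of 6.45 and 6.43 and a relative difference of -0.42.

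Cholesterol genes differed in the other direction, inside the threshold. Of 24 listed, 23 passed, 22 of these lay above 0, none lay above 2 or below -2, and the median was 0.93 (1.22 without the 4 libraries). The mean over the list ran from 3.14 through 3.87 to 5.82 in day-14 cells and from 4.02 through 5.17 to 7.19 in day-17 cells. The 7.19 was that of day-17 cell 15. Dhcr7, the last enzyme of one branch of the pathway, went from a lowest, median and highest level of 0.16, 2.56 and 5.77 to 2.80, 4.83 and 6.85, with a relative difference of 1.90, and 2.26 without the 4 libraries. Mvd differed by 1.74, Tm7sf2 by 1.70, Idi1 by 1.42, Hmgcs1 by 1.18 and Sqle by 0.67.

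The 13 fatty acid genes had a median of 0.36, with 9 above 0 and none past 2, and a median of 0.07 without the 6 day-17 cells with Y-linked transcripts. Fads2, a desaturase, had the largest value, 1.83, with medians of 6.09 and 7.71 and the day-17 cell higher in 92.9% of pairs. Acly, which makes cytosolic acetyl-CoA, differed by 1.10, Scd2 by 0.96, the regulator Srebf1 by 0.95 and Fasn by 0.49.

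**Figure D4:**
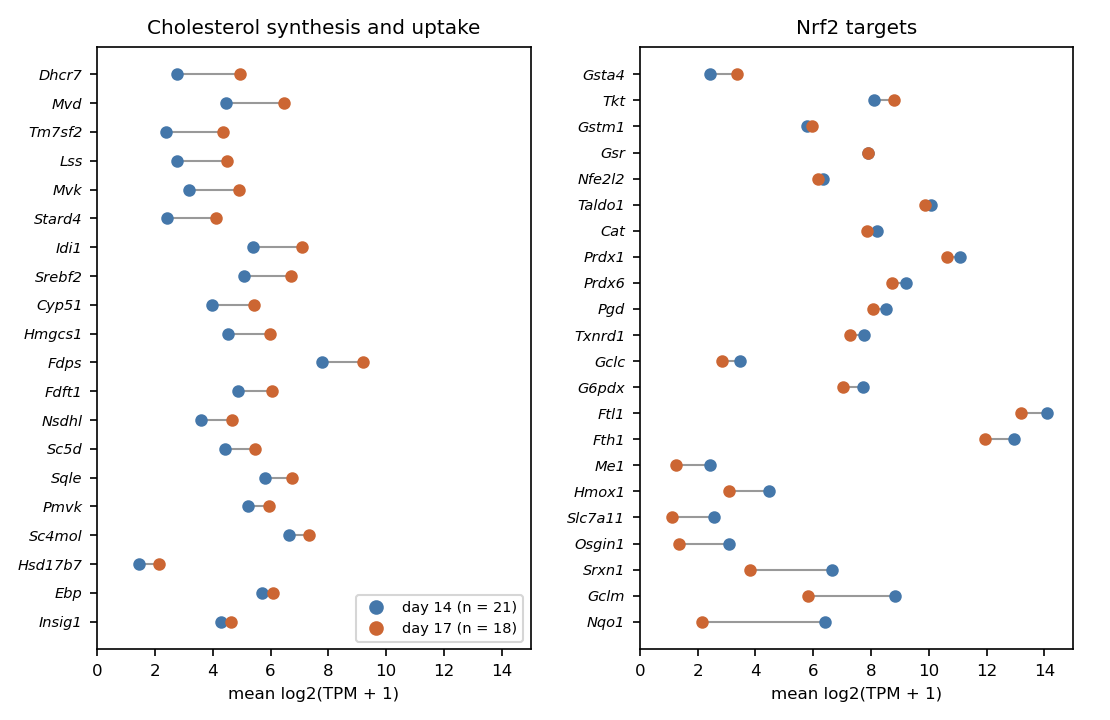
Mean level, as log2(TPM + 1), of genes that passed the filter on the lists of cholesterol synthesis and uptake (left, 20 of the 23) and Nrf2 targets (right, 22 genes) in day-14 (blue, n = 21) and day-17 cells (orange, n = 18), joined by a line and ordered by difference. The orange point lies right of the blue one for each of the 20 cholesterol genes shown, which do not include the 1 with a relative difference below 0, and far left of it for Nqo1, Gclm and Srxn1.

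Among the lists of carbon and amino acid metabolism, glycolysis had the median furthest from 0. The 21 glycolysis genes had a median of -0.43 with 17 below 0 and none past 2. Slc2a1, the main glucose transporter, differed by -1.27, and -0.91 without the 4 libraries, Hk2 by -0.83 and Ldha by -0.43, while Ldhb, the lactate dehydrogenase chain of oxidative tissues, differed by 1.63. Genes of the citric acid cycle had a median of -0.11 over 22 genes, nucleotide synthesis -0.09 over 21, serine and one-carbon metabolism -0.13 over 14 and iron and heme 0.09 over 16. Targets of Atf4, which answers amino acid shortage, had a median of -0.22 over 19 genes. Asns, the asparagine synthetase among them, differed by -1.99 and the pseudokinase Trib3 by -2.27, which became -1.55 without the 4 libraries.

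Genes of protein synthesis and respiration were evenly lower. All 79 cytosolic ribosomal protein genes lay below 0, with a median of -0.80 (-0.73 without the 4 libraries), and none was below -2. Their mean level ran from 9.77 to 10.8 in day-14 cells and from 8.68 to 10.1 in day-17 cells. Nuclear genes of the respiratory chain had a median of -0.48, with 75 of 81 below 0. These genes take a large share of each cell's TPM, and with median-of-ratios size factors in place of the TPM scaling the medians were -0.80 and -0.47. The relative difference takes out most of what a change of scaling adds, so these values cannot show whether the scaling plays a part. Ribosome biogenesis genes had a median of -0.17 over 25 genes, and Myc differed by -1.49.

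Cell cycle genes split by phase. The 21 S-phase genes had a median of 0.32, with 17 above 0, and the 21 genes of G2 and mitosis a median of -0.64, with 15 below 0. Ube2c and Cdc20, which act in the destruction of mitotic proteins, differed by -2.55 and -2.36. They were the 2 of these 21 below -2, against 0.941% of all genes, while Mki67 differed by 0.18 and Ccna2 by -0.64. The number of cells in a phase was not measured.

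**Figure D5:**
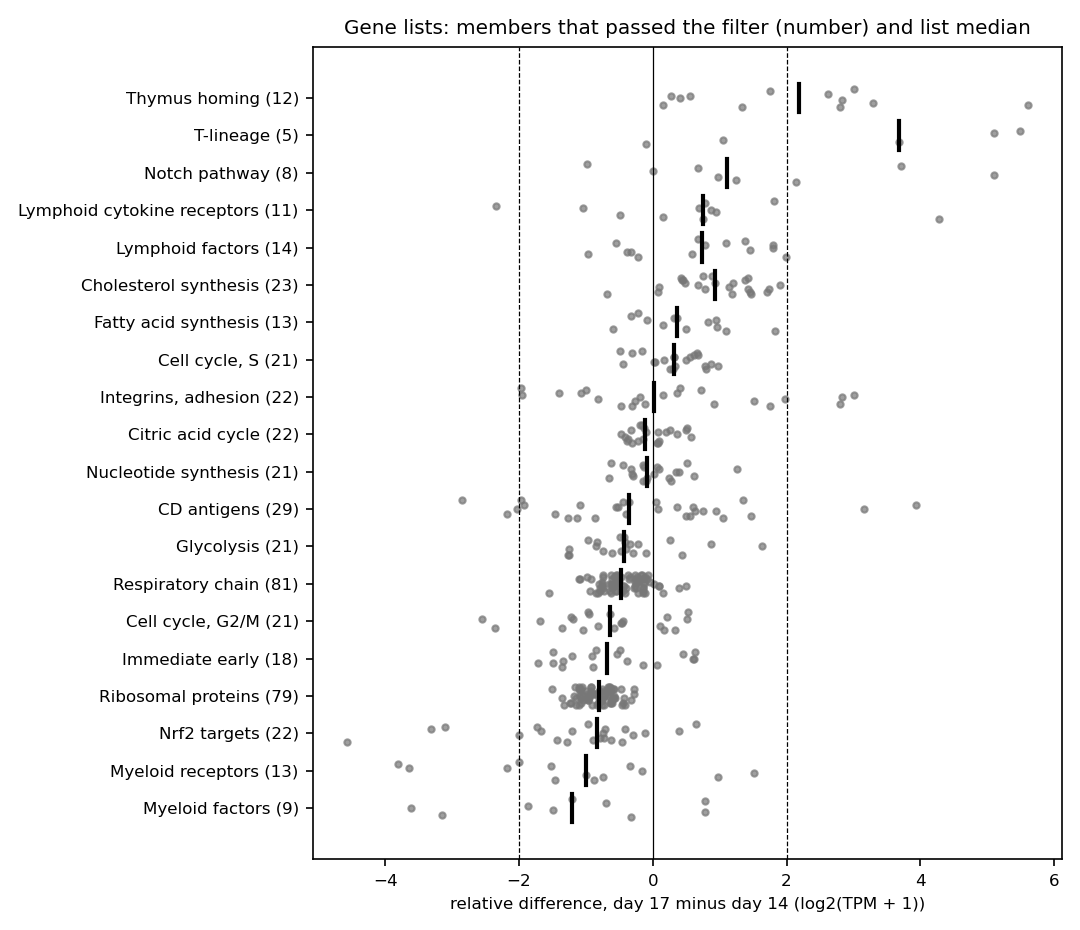
Relative difference, day 17 minus day 14 on the scale of log2(TPM + 1), of each gene that passed the filter (gray points) on 20 gene lists, with the number of genes in brackets, the list median as a black bar and dashed lines at -2 and 2. Thymus homing genes have a median of 2.19 and cholesterol genes one of 0.93, while the ribosomal protein genes (-0.80), Nrf2 targets (-0.84) and myeloid receptors (-1.0) lie to the left of 0.

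The day-21 iHPCs, 56 cells after 10 days of maturation that were sorted as Ter119-negative cells with CD45, c-kit and CD127, give context. Over the 129 rises the median day-21 level was 3.35, and 74 of the 129 genes had a day-21 mean nearer to day 17 than to day 14. Over the 88 falls it was 1.86, and 73 of 88 were nearer to day 17. The genes were picked by their day-14 and day-17 values, and no share over all genes stands beside these counts. The counts are therefore not read further. Aldh1b1 and Cxcr4 were lower again at day 21, with means of 3.35 and 1.91 against 5.80 and 3.98 at day 17, while Cpa3 reached a mean of 10.7. At day 21 Aldh1b1 was detected in 36 and Cxcr4 in 27 of the 56 cells. The study describes part of the day-21 iHPCs as a subpopulation with more Gata2 and without thymus-homing genes. Age of the culture, gate and mixture of cells cannot be told apart in these means.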

How the data were processed

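Single sorted cells were profiled by RNA sequencing of amplified cDNA. By the submitters' processing notes the tools were bcl2fastq, HISAT2 2.1.0, SAMtools 0.1.19 and StringTie 1.3.4, with genome mm10. The authors deposited TPM values of all 160 cells in 1 table of 23420 genes (0 columns unused). TPM keeps no read counts, so depth is unknown, and genes above 1 TPM per cell stand in for it (medians 8200 at day 14, 8101 at day 17). The names of 27 rows had become dates and none of these is named.

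Levels are log2(TPM + 1), computed with Python 3.11.15, numpy 2.4.6 and pandas 2.3.3. Genes above 1 TPM in more than 30 cells were compared. Intervals are exact Clopper-Pearson at 95% (scipy 1.17.1), and a count of 0 allows 3 cells of the total. No cell was left out of the main values. The labels gave the groups. No test was run, since each group is 1 sample. The relative difference and its threshold were tried on values simulated from the day-14 cells. Detection shares, lists, filters and changes in genes of low level were not tried in this way.

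Members and gene lists were chosen with earlier results of these data known. Named genes are 6 markers, the 15 largest rises and 15 largest falls outside the interferon list, up to 6 genes past the threshold per list and direction, and genes that define a list, of which 5 are not reported here. Positions are RefSeq, GRCm38.p6. The alternatives tried were other pseudocounts, filters, scalings and cells left out.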

Additional observations from a re-analysis of the deposited data

How the results depend on the processing

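Against 187 genes above 2 and 91 below -2, a pseudocount of 0.1 gave 462 and 385, a pseudocount of 10 gave 56 and 17, and differences of medians gave 418 and 308. Without a filter 286 genes lay above 2. Leaving out each cell in turn gave 178 to 221 genes above 2 and 86 to 107 below -2. With a detection threshold of 10 TPM the median number of genes per cell was 5839 at day 14 and 6566 at day 17, an order opposite to that at 1 TPM. No named gene past the threshold changed direction. Of 46 list medians, 28 kept their sign under every alternative run on them. The other 18 were at most 0.56 in size in the main values and changed sign in at least 1, among them nucleotide synthesis, the citric acid cycle, integrins, granule genes (-1.06 under the second filter) and other surface proteins (0.37 against -0.19 with differences of medians). Median-of-ratios size factors gave 185 and 85 genes, all of them among the 187 and 91, and merging the near-identical cells 182 and 88. Without the 4 libraries that stand apart, a choice made after seeing the data as were the next and the merging, 182 of the 187 and 84 of the 91 genes remained past 2. Without the 6 day-17 cells with Y-linked transcripts 159 and 76 did. Of the 30 leading differences, 0 changed direction under any of these, and that of Cd7 ran from 3.69 to 8.15. The replicate numbers of the cells pair nothing. No paired analysis was possible because the numbers only name cells and no test was run. With 21 and 18 cells of 1 sample each, a gene detected in 0 cells may be in up to 14.3% or 16.7% of them. These limits take 3 cells of the total, and the exact Clopper-Pearson upper limits are wider, at 16.1% and 18.5%.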

Other observations

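Some gene groups outside the comparisons above also differed between day 14 and day 17. Genes of peptide loading on MHC class I were higher at day 17 throughout, with all 16 that passed the filter above 0 and a median of 1.37. Of the 16, 6 lay above 2, against 1.93% of all genes. All 6, Tap1, Tap2, Tapbp, Psmb8, Psmb9 and H2-T23, also stand on the interferon-response list, so they are not separate from it. Immediate early genes, which respond within minutes to growth factors and to handling, had a median of -0.69 over 18 genes, with 13 below 0 and none past 2. Survival genes had a median of -0.29 over 14 genes. Among them Pim2 differed by -4.21 and Mcl1 by -1.15, while Bcl2, found in 2 cells at day 14 and in 5 at day 17, differed by 0.17.

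Erythroid and megakaryocyte markers were low at both days. The mean level per cell over the 12 erythroid genes ran from 0.14 to 1.19 in day-14 cells and from 0.05 to 1.44 in day-17 cells, and that over the 10 megakaryocyte genes from 0 to 1.80 and from 0 to 0.55. Gata2, a factor of stem and mast cell progenitors, was detected in 6 of 21 and 3 of 18 cells.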
